A study of Mus musculus with 7 samples.

Results

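GABA is the main transmitter of the suprachiasmatic nucleus (SCN), the seat of the central clock in the hypothalamus, where nearly all neurons make it. The genes described here cover its synthesis, vesicle loading, uptake and breakdown, the subunits of its receptors, the carriers that set neuronal chloride, and the proteins that hold or move GABA-A receptors. They were looked up by name in the deposited gene counts. The rule is a list of names and sets no threshold on a measured value, but the list was drawn up with earlier results of these data known. All 27 were found among the 55487 listed genes, and 26 passed the filter on low counts. Some other subunits and carriers of these families were not analysed here.

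The study took SCN microdissections from 2 groups of mice kept in a light and dark cycle. The advanced glaucoma group (3 libraries: scn_glauc_152, scn_glauc_153 and scn_glauc_154) is of the DBA/2J strain, which carries a spontaneous mutation of Gpnmb and develops high intraocular pressure and retinal damage. The control group (4 libraries: scn_cont_565, scn_cont_567, scn_cont_568 and scn_cont_570) is DBA/2J-Gpnmb+SjJ, the same background without that mutation. The genotype label reads WT in both groups. No agent was given, and the sources used here give no age, sex or time of collection. Tissue came from sections of 600 µm, so tissue beside the nucleus could be included.

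RNA was counted by BRB-seq, a 3′ method that barcodes each sample before pooling. Libraries held 2174456 to 5285093 counts, with scn_cont_565 the shallowest. Levels are given as CPM, the count scaled to a common library total by TMM, which corrects for differences in RNA composition. They are not compared between genes, because equal 3′ counts of different genes need not mean equal numbers of transcripts. Gpnmb had 0 to 2 counts in each library, too few to check the labels. The SCN markers stood apart between the groups: of 17 tested, 11 were lower in advanced glaucoma and 0 higher, with Vip at 112 ± 37.7 and 2.69 ± 1.38 CPM (SD, n = 4 and n = 3). The summed level of the 18 listed SCN markers was 2555 to 7733 CPM in control and 698 to 3806 CPM in advanced glaucoma, and none was at 0 in every library. The retina and optic nerve list, by contrast, summed to 7.56 to 13.6 CPM in control and 8.19 to 13.8 CPM in advanced glaucoma, with Crx, Opn4 and Pou4f2 at 0 in every library.

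GABA is made from glutamate by glutamic acid decarboxylase, which has one form encoded by Gad1 and another by Gad2. The vesicular transporter encoded by Slc32a1 loads it into synaptic vesicles. Released GABA opens GABA-A receptors, pentameric chloride channels, and acts more slowly on GABA-B receptors, which are G protein coupled. Whether an open GABA-A channel inhibits or excites a neuron depends on its internal chloride, which Slc12a2 (NKCC1) raises and Slc12a5 (KCC2) lowers. In the SCN both excitatory and inhibitory responses to GABA are known, and the transmitter helps to couple clock neurons.

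Promoter sequence is shown for Gad1, Gad2 and Slc32a1, the genes that define a GABA-releasing neuron and the members with the lowest fold changes. The sequences are RefSeq's for GRCm38.p6, plus strand of chromosome 2, 5′ to 3′. Each begins 250 bases before the RefSeq start and ends at that start, or before the first GENCODE exon inside those 250 bases. The Gad1 stretch lies within the annotated gene, in an intron of a longer transcript whose first exon begins upstream at 70553072. The regions are chr2:70561879-70562041 for Gad1, chr2:22622077-22622204 for Gad2 and chr2:158610508-158610757 for Slc32a1. Capitals mark a TATA box match on the reverse strand, 141 bases before the Gad1 start.
Gad1: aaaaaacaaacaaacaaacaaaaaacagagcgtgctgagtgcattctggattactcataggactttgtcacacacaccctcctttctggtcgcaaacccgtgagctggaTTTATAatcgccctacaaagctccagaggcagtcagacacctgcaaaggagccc
Gad2: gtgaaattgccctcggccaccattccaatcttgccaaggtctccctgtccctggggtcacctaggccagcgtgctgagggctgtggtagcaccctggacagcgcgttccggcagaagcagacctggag
Slc32a1: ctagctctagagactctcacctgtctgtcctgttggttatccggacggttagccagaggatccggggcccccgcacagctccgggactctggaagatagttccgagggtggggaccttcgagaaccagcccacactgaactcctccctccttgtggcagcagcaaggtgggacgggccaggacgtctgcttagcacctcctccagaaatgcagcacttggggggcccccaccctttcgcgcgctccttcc
GC content over the 250 bases was 58.0% for Gad1, 64.0% for Gad2 and 62.4% for Slc32a1, against a median of 52.4% (quartiles 45.2% and 61.2%) over 32851 promoters. The letters searched, on both strands, were CACGTG for the E-box, TGACG for a partial cAMP response element (CRE), AGGTCA for the site of ROR receptors, TAATTA for the homeobox core, GGGCGG for the GC box and TATAAA for the TATA box. None of these motifs contains another. The E-box, the ROR site and the homeobox core were in none of the 3 windows, and in 6.02%, 14.0% and 4.84% of all promoters. The CRE part was in the Gad2 window and in 17.8% of promoters, the GC box in the Gad1 window and in 32.7%, and the TATA box in the Gad1 window and in 12.4%. The CRE and GC box matches lie in annotated exon and are not printed.

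Among all GABA genes, none passed the test between groups. Of 26 tested, 0 were lower and 0 higher at a threshold of 0.05 on the p that edgeR's quasi-likelihood test gave after Benjamini-Hochberg adjustment over 14020 genes. Of all tested genes 0.471% passed, 0.378% lower and 0.0927% higher. DESeq2 and limma-voom also called 0 members, while 2, Gad2 and Slc32a1, were called lower with no filter on low counts (edgeR adjusted p = 0.00382 and 6.31e-04) and without robust estimation (0.0355 and 0.0310). Before adjustment, 7 of 26 members, or 26.9%, had a p under 0.05, where 8.2% of all tested genes passed. Of these, 4 were lower (Slc32a1, Gad2, Slc12a2 and Gabbr2) and 3 higher (Gabra5, Gabrq and Gabra3), where 4.15% and 4.05% of all tested genes passed in those directions. Because the members were chosen with earlier results of these data known, these shares are a description and not a test. The median log2 fold change, advanced glaucoma over control, was 0.035 for the members and -0.0071 for all genes tested. In 22 of the 26 members (84.6%) it was within 0.5 of 0, as in 90.2% of all genes.

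**Figure D1:**
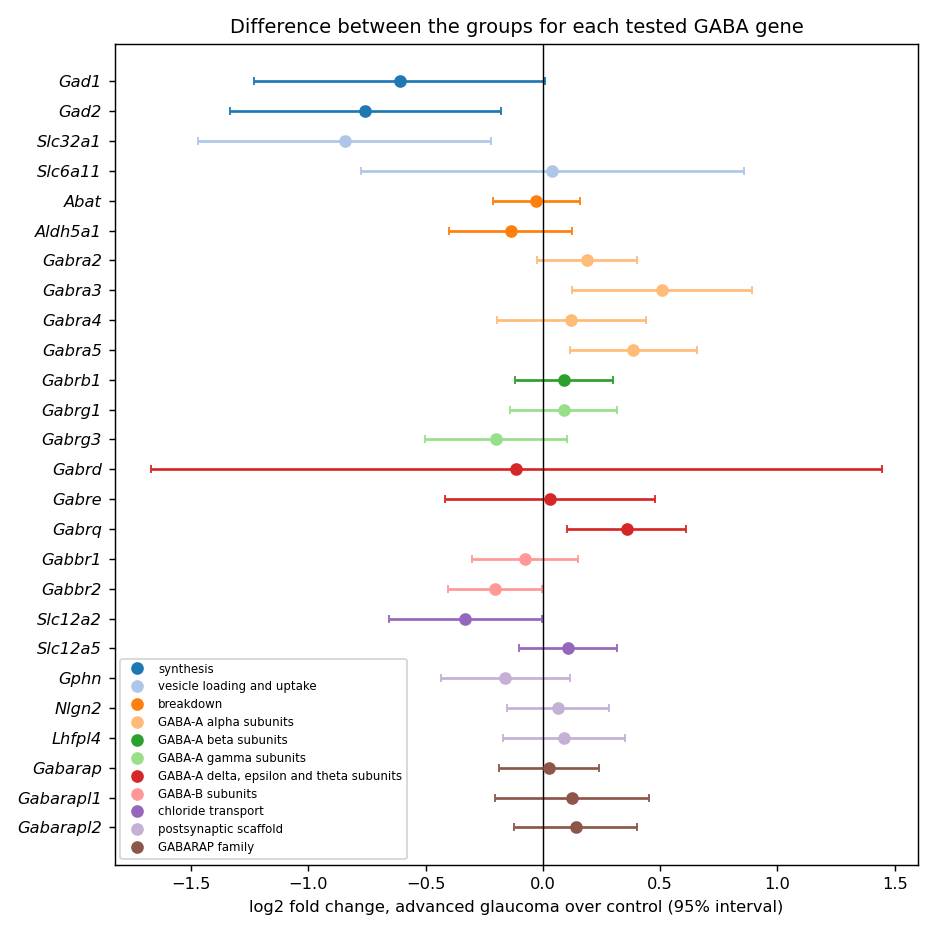
Log2 fold change of advanced glaucoma over control (x axis) for each of the 26 tested GABA genes (y axis), coloured by role, with 95% intervals from edgeR. Gad1, Gad2 and Slc32a1 lie lowest, at -0.61, -0.76 and -0.85, while the other 23 members lie between -0.33 and 0.51.

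The genes that make and load GABA had the lowest fold changes of the members. Gad2, which encodes the membrane-bound decarboxylase near synaptic vesicles, was at 496, 384, 438 and 554 CPM in control and at 351, 295 and 183 CPM in advanced glaucoma, with libraries ordered as named above, here and in later sentences. All 3 advanced glaucoma libraries lay under the lowest control library, scn_cont_567, and scn_glauc_154 lay far under the rest. The group means were 468 ± 73.5 and 276 ± 85.7 CPM (SD, n = 4 and n = 3), a 1.69-fold difference with a log2 fold change of -0.76 (SE 0.241 with 95% limits -1.34 and -0.18, edgeR adjusted p = 0.446).

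Slc32a1, the vesicular loader, was at 179, 129, 163 and 199 CPM in control and at 112, 109 and 57.3 CPM in advanced glaucoma. The groups did not overlap here either, and scn_glauc_154 was again the lowest. Its log2 fold change was -0.85 (SE 0.261 with 95% limits -1.47 and -0.22, edgeR adjusted p = 0.427), from 168 ± 29.8 to 92.7 ± 30.7 CPM (SD, n = 4 and n = 3). Gad1, which encodes the decarboxylase form that supplies most of the GABA in the brain, was at 327, 233, 337 and 395 CPM in control and at 266, 222 and 146 CPM in advanced glaucoma. Here the groups overlapped, since scn_glauc_152 lay above scn_cont_567. Its log2 fold change was -0.61 with 95% limits -1.23 and 0.0092 (edgeR adjusted p = 0.619).

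**Figure D2:**
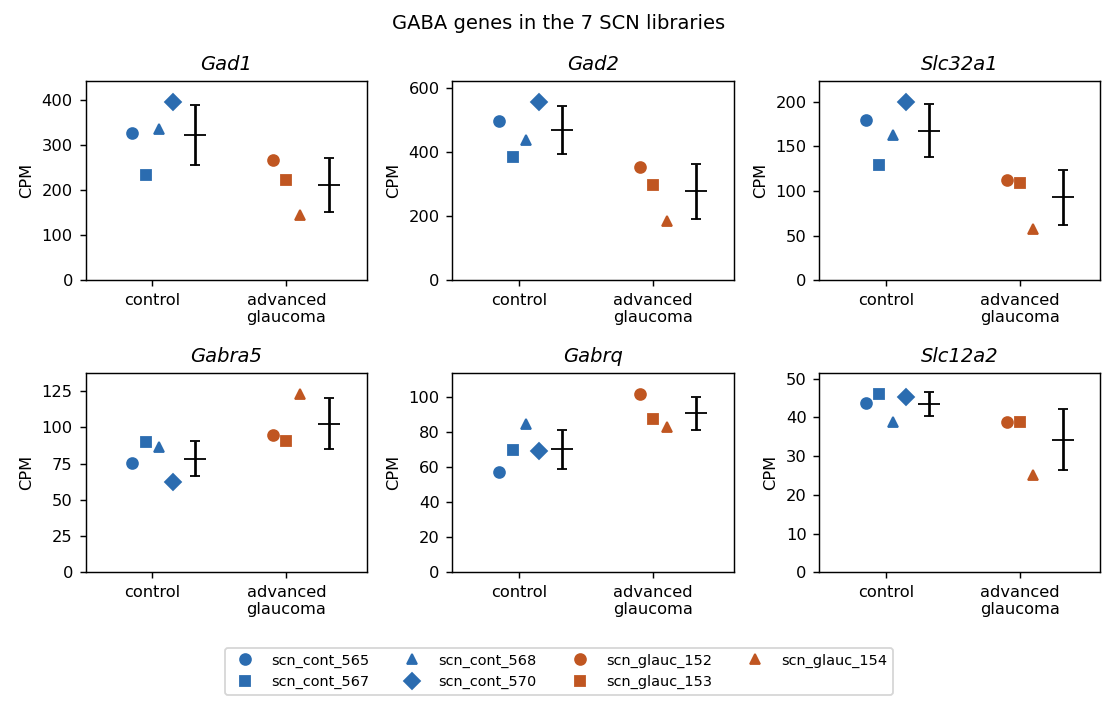
CPM (y axis, from 0) of 6 GABA genes in each of the 7 libraries by group (x axis), with the mean and SD of each group beside the points. Gad2, Slc32a1 and Slc12a2 lie lower and Gabra5 higher in all 3 advanced glaucoma libraries than in any control library, and scn_glauc_154 is the lowest for Gad1, Gad2, Slc32a1 and Slc12a2 and the highest for Gabra5.

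The 3 genes kept nearly the same proportions in every library while their level moved. Gad2 spanned a 3.03-fold range over the 7 libraries, Gad1 a 2.71-fold range and Slc32a1 a 3.48-fold range. The ratio of Slc32a1 to Gad2 counts was 0.361, 0.336, 0.371 and 0.360 in the control libraries and 0.319, 0.369 and 0.314 in the advanced glaucoma libraries, a 1.18-fold span. The ratio of Gad1 to Gad2 counts ran from 0.608 in scn_cont_567 to 0.797 in scn_glauc_154, a 1.31-fold span. The ratio of Gabra2, a receptor subunit gene, to Gad2 spanned 3.99-fold, from 0.429 in scn_cont_570 to 1.71 in scn_glauc_154. A count ratio of different genes is not a ratio of transcripts, so only its movement between libraries is read.

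**Figure D3:**
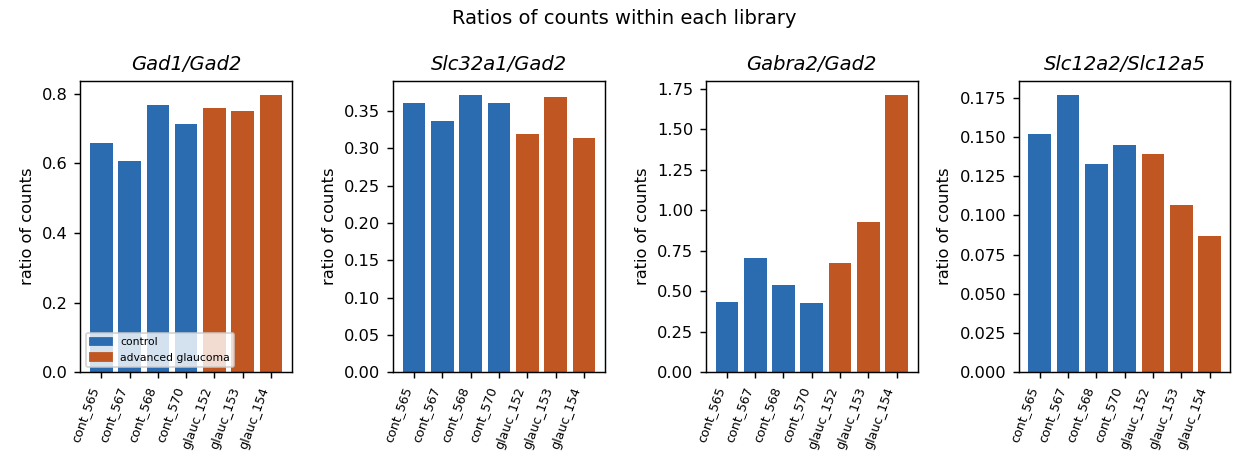
Ratios of raw counts (y axis, from 0) between pairs of GABA genes in each library (x axis), control in blue and advanced glaucoma in orange. Slc32a1/Gad2 stays between 0.314 and 0.371 in all 7 libraries, while Gabra2/Gad2 runs from 0.429 to 1.71 and Slc12a2/Slc12a5 from 0.0867 to 0.177.

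Markers of the nucleus and of its surroundings differed between libraries too, in part along with these genes. On mean log2 CPM, set against the control mean, the SCN list stood at -1.86, -1.80 and -2.14 in scn_glauc_152, scn_glauc_153 and scn_glauc_154, with scn_glauc_154 again lowest. The list of neighbouring hypothalamic nuclei was at 0.83, 0.96 and 0.29 in these libraries, and between -0.50 and 0.59 in control, so that scn_glauc_154, the lowest for the 3 genes, lay inside the control range for it. Within control, scn_cont_567, the lowest for Gad1, Gad2 and Slc32a1, was also the lowest for the SCN list (-0.26) and the highest for the neighbouring list (0.59), while scn_cont_570, the highest for the 3 genes, was the lowest for the neighbouring list (-0.50) and at -0.014 for the SCN list, whose highest control library was scn_cont_565 (0.25). In bulk tissue, fewer GABA neurons and less RNA per neuron cannot be told apart.

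Slc17a6, which encodes the vesicular glutamate transporter of hypothalamic excitatory neurons, was at 72.2 to 139 CPM in control and at 135, 175 and 190.0 CPM in advanced glaucoma (a log2 fold change of 0.60, edgeR adjusted p = 0.524). Its highest value was in scn_glauc_154, the library lowest in Gad2. The 8 glutamatergic markers summed to 271 to 361 CPM in control and to 344 to 482 CPM in advanced glaucoma. Of the 18 neighbouring markers, 17 were tested, 0 were lower and 1 was higher, Nkx2-1, and Kiss1 was at 0 in every library; they summed to 1982 to 3985 CPM in control and 1949 to 4121 CPM in advanced glaucoma. The 16 pan-neuronal markers summed to 8597 to 8999 CPM in control and 8759 to 9579 CPM in advanced glaucoma, with 1 higher, Nefl. The 16 myelin markers summed to 4643 to 5965 and 2613 to 5260 CPM, with 1 lower, Apod. All 16 had a negative log2 fold change. On mean log2 CPM, set against the control mean, this list was lowest in control in scn_cont_567 (-0.25) and highest in scn_cont_570 (0.11). It was at -0.59, -0.041 and -1.05 in scn_glauc_152, scn_glauc_153 and scn_glauc_154. In a fit that took the myelin list's mean as a covariate, the log2 fold changes of Gad1, Gad2 and Slc32a1 were -0.19, -0.37 and -0.35. What part these tissues have in the Gad1, Gad2 and Slc32a1 values was not tested.

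**Figure D4:**
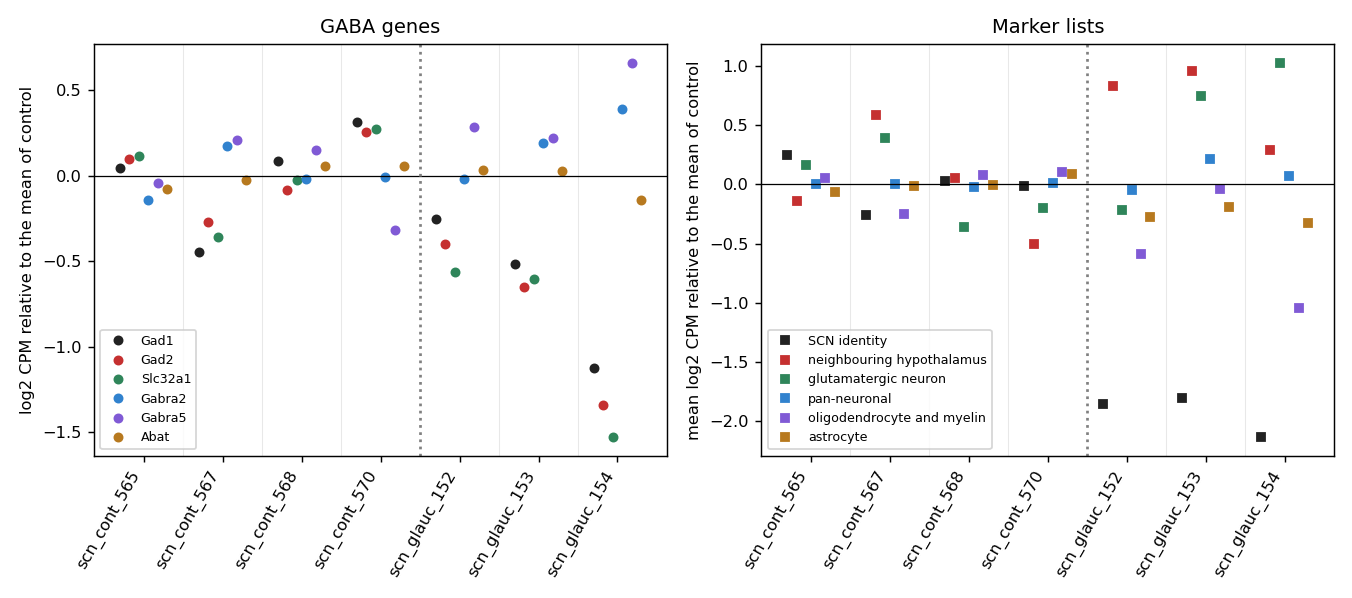
Left, log2 CPM of 6 GABA genes in each library (x axis) relative to their mean in control. Right, the mean log2 CPM of 6 marker lists on the same basis; the dotted line parts control from advanced glaucoma. Gad1, Gad2 and Slc32a1 sit together in each library and lowest in scn_glauc_154, the library where the SCN list is also lowest, at -2.14, and the glutamatergic list highest, at 1.03. The glutamatergic list, a mean of 4 tested genes, is at -0.21 in scn_glauc_152 and 0.75 in scn_glauc_153, and at -0.36 to 0.39 in control.

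No gene of GABA uptake or breakdown passed the test. Slc6a11, which encodes the GABA carrier GAT3 of astrocytes, varied widely within control, at 370.3, 199, 273 and 163 CPM, and was at 293, 274 and 201 CPM in advanced glaucoma. The advanced glaucoma libraries all lay inside the control range (a log2 fold change of 0.041 with 95% limits -0.78 and 0.86). The 15 astrocyte markers, of which 1, Aqp4, was lower, summed to 4502 to 4993 CPM in control and 4167 to 4400 CPM in advanced glaucoma.

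Abat, which encodes GABA transaminase, the first enzyme of GABA breakdown, was the steadiest member. It was at 346, 359, 380.4 and 379.6 CPM in control and at 375, 372 and 331 CPM in advanced glaucoma, with a coefficient of variation of 5.20% over the 7 libraries. Its log2 fold change was -0.028, with a 95% interval of -0.21 to 0.16. Aldh5a1, which encodes the succinic semialdehyde dehydrogenase of the next step, was at 62.2 to 75.1 CPM in control and 57.1 to 76.3 CPM in advanced glaucoma (a log2 fold change of -0.14 with 95% limits -0.40 and 0.12). 9330162012Rik, with 257 counts in all against 1895 for Aldh5a1, overlaps it on the opposite strand, and its reads could be part of either.

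The GABA-A receptor subunit genes leaned the other way from Gad1, Gad2 and Slc32a1. Of 11 subunit genes, 10 were tested. Their log2 fold changes were positive in 8 and negative in 2 and had a median of 0.11, although the sign changed in 7 of 17 alternative analyses for Gabre, in 6 of 16 for Gabrd and in 2 of 17 for Gabrb1. None of the subunit genes passed. Of all tested genes, 51.5% had a negative log2 fold change. The lean was not particular to the subunits: pan-neuronal markers were positive in 13 and negative in 3, and neighbouring markers in 13 and 4. Astrocyte markers were positive in 3 and negative in 12.

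Alpha subunits form the GABA site with beta subunits and decide much of a receptor's pharmacology. Gabra5, whose subunit is found largely in receptors outside synapses, was at 75.5, 89.7, 86.3 and 62.3 CPM in control and at 94.4, 90.3 and 123 CPM in advanced glaucoma. The groups did not overlap, though scn_glauc_153 and scn_cont_567 lay close to each other. Its log2 fold change was 0.39 (SE 0.131 with 95% limits 0.12 and 0.66), and its adjusted p of 0.317 by edgeR was the smallest of the members. Its scn_glauc_154 value, the highest, came from the library with the least Gad2.

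Gabra3 was at 21.8, 23.9, 29.0 and 26.3 CPM in control and at 45.7, 38.1 and 24.1 CPM in advanced glaucoma. Here scn_glauc_152 and scn_glauc_153 lay above every control library and scn_glauc_154 lay among them (a log2 fold change of 0.51 with 95% limits 0.12 and 0.89, edgeR adjusted p = 0.385). Gabra2 was at 217 to 269.7 CPM in control and at 236, 273 and 313 CPM in advanced glaucoma (a log2 fold change of 0.19 with 95% limits -0.025 and 0.40). Gabra4, an alpha subunit gene of receptors outside synapses in thalamus and hippocampus, was at 26.3 to 32.2 CPM in control and 31.9 to 33.5 CPM in advanced glaucoma (a log2 fold change of 0.12). All 4 alpha subunit genes thus had a positive log2 fold change, and they kept that sign in all 17 alternatives. The size varied more. With the myelin list as a covariate the log2 fold changes were 0.055 for Gabra2, 0.80 for Gabra3, 0.075 for Gabra4 and 0.11 for Gabra5. Without scn_glauc_154 they were 0.086, 0.72, 0.12 and 0.24.

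Among the remaining subunits, Gabrq, which encodes the theta subunit found in hypothalamus and monoamine nuclei, had the largest difference. It was at 57.6, 70.1, 84.8 and 69.2 CPM in control and at 102, 87.7 and 83.1 CPM in advanced glaucoma, so that scn_cont_568 alone among controls reached into the range of the other group (a log2 fold change of 0.36 with SE 0.123 and 95% limits 0.10 and 0.61, edgeR adjusted p = 0.326). Gabre, the epsilon subunit gene, also on the X chromosome, split into high and low libraries in both groups, at 23.3, 23.3, 37.7 and 35.1 CPM in control and 36.3, 20.3 and 37.1 CPM in advanced glaucoma (a log2 fold change of 0.030).

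Gabrb1, a beta subunit gene, was at 205 to 263 CPM in control and 228 to 269 CPM in advanced glaucoma, with a log2 fold change of 0.090 (95% limits -0.12 and 0.30). Of the gamma subunit genes, Gabrg1 had a log2 fold change of 0.088 (95% limits -0.14 and 0.31) and Gabrg3 one of -0.199 (95% limits -0.50 and 0.10). Gabrd, whose delta subunit makes receptors that carry tonic current, had 1 to 22 counts per library. Within control it ran from 0.248 CPM in scn_cont_568 to 9.93 CPM in scn_cont_565. With such low counts and wide spread, its 95% interval of -1.67 to 1.45 could not show whether the groups differ. Gabrb2 had 5, 1, 6 and 4 counts in control and 1, 2 and 3 counts in advanced glaucoma, did not pass the filter on low counts and was not tested.

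Several subunit genes lie in clusters (GRCm38, GENCODE M21). On chromosome 5, Gabrg1 (70751047 to 70842617), Gabra2 (70957597 to 71095849) and Gabra4 (71569749 to 71658308) lie on the minus strand and Gabrb1 (71658113 to 72149037) on the plus strand, and their log2 fold changes were 0.088, 0.19, 0.12 and 0.090. The 5′ exons of Gabra4 and Gabrb1 overlap on opposite strands, and whether the counting used strand is unknown. On the X chromosome, Gabre (72255999 to 72274803), Gabra3 (72432681 to 72656848) and Gabrq (72825178 to 72842602) had log2 fold changes of 0.030, 0.51 and 0.36. On chromosome 7, the neighbours Gabrg3 (56716465 to 57387188) and Gabra5 (57407672 to 57510059) had log2 fold changes of -0.199 and 0.39. The chromosome 5 values lay close together and those on X and on 7 further apart. No difference between neighbours was tested. Gabra5 also overlaps Gm9962, which held 109 counts in all, on the opposite strand.

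The GABA-B receptor is a dimer in which the Gabbr1 subunit binds GABA and the Gabbr2 subunit couples to the G protein. Gabbr2 was at 249.7, 214, 258 and 252 CPM in control and at 199.6, 225 and 209 CPM in advanced glaucoma. The groups overlapped through scn_cont_567 and scn_glauc_153 (a log2 fold change of -0.20 with 95% limits -0.40 and -0.0053, edgeR adjusted p = 0.595). Gabbr1 was at 278 to 381 CPM in control and 290.0 to 369.9 CPM in advanced glaucoma (a log2 fold change of -0.078 with 95% limits -0.30 and 0.15).

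Neither chloride carrier gene passed the test. Slc12a2, the chloride importer NKCC1, was at 43.7, 45.9, 38.9 and 45.2 CPM in control and at 38.8, 38.8 and 25.2 CPM in advanced glaucoma. The groups did not overlap, but scn_glauc_152 and scn_glauc_153 lay at the edge of scn_cont_568, and scn_glauc_154 alone lay far below (a log2 fold change of -0.33 with 95% limits -0.66 and -0.0032, edgeR adjusted p = 0.602). Without scn_glauc_154 the log2 fold change of Slc12a2 was -0.16. NKCC1 is also made by glia, and the myelin list was lowest in the same library, at -1.05 relative to its mean in control; its part in the Slc12a2 value was not tested. Slc12a5, the neuronal exporter KCC2, was at 287, 259.6, 292 and 312 CPM in control and at 278, 363 and 291 CPM in advanced glaucoma (a log2 fold change of 0.11 with 95% limits -0.10 and 0.32), and its log2 fold change was -0.017 without scn_glauc_153 and -0.019 with the pan-neuronal list as a covariate. The ratio of Slc12a2 to Slc12a5 counts was 0.152, 0.177, 0.133 and 0.145 in control and 0.139, 0.107 and 0.0867 in advanced glaucoma, so that scn_glauc_152 lay inside the control range.

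Over the 26 tested members, the groups were apart for 4, or 15.4%, where they were apart for 8.02% of all tested genes. Of the 4, Gad2, Slc32a1 and Slc12a2 were lower and Gabra5 higher, where 3.91% and 4.12% of all tested genes were apart in those directions. Here too the members were chosen with earlier results known, so the shares only describe them.

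No scaffold gene of the inhibitory synapse passed the test. Gephyrin, the postsynaptic scaffold encoded by Gphn, was at 54.9 to 71.1 CPM in control and 45.7 to 60.5 CPM in advanced glaucoma (a log2 fold change of -0.16 with 95% limits -0.44 and 0.12). Gm48226, with 635 counts in all against 1660 for Gphn, overlaps it on the opposite strand, and its reads could be part of either. Nlgn2, the adhesion protein neuroligin 2 of inhibitory synapses, had a log2 fold change of 0.064 (95% limits -0.15 and 0.28). Lhfpl4, which tethers GABA-A receptors to it, had one of 0.090 (95% limits -0.17 and 0.35). Gabarap, Gabarapl1 and Gabarapl2, ubiquitin-like proteins of receptor trafficking and autophagy, had log2 fold changes of 0.025, 0.12 and 0.14, with intervals no further from 0 than 0.45. Gabarapl1 varied most of the 3, at 221 to 346 CPM in control and 265 to 345 CPM in advanced glaucoma.

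Among the other pathway genes described here, the calls came from receptor assembly and the inhibitory synapse. Of 25 genes in that list, 2 were lower and 0 higher. Of all tested genes, 0.378% and 0.0927% passed in those directions. The list was chosen with earlier results known, so its share only describes it. Iqsec3, an exchange factor that binds gephyrin, fell from 147, 119, 148 and 156 CPM in control to 103, 101 and 88.9 CPM in advanced glaucoma (a log2 fold change of -0.55, SE 0.110, edgeR adjusted p = 0.0147). Nrxn3, a presynaptic neurexin, fell from 342, 274, 272 and 373 CPM to 231, 204 and 159 CPM (a log2 fold change of -0.67, SE 0.132, edgeR adjusted p = 0.0226). In both genes the groups did not overlap and scn_glauc_154 was the lowest library, as it was for Gad1, Gad2 and Slc32a1. The groups were apart in that direction for 3.91% of all tested genes.

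SCN markers were lower in these libraries too, and their part in the Iqsec3 and Nrxn3 values was not tested. Both calls were lost in some alternatives, with the direction kept in all 17: Iqsec3 passed in 11 and Nrxn3 in 9. Without scn_glauc_154 the edgeR adjusted p was 0.185 for Iqsec3 and 0.151 for Nrxn3, and without scn_cont_570 it was 0.0712 and 0.0602. Iqsec3 also did not pass without scn_cont_568 (0.0619), nor Nrxn3 without scn_cont_565 (0.230) or scn_glauc_153 (0.0836). With the myelin list as a covariate the edgeR adjusted p was 0.787 for Iqsec3 and 0.754 for Nrxn3, with the pan-neuronal list it was 0.0588 and 0.128, and by limma-voom it was 0.0539 for Nrxn3. Without scn_cont_565 and scn_glauc_154 together, a setting chosen after seeing the data, it was 0.156 and 0.166 by edgeR. Over all 17 alternatives the log2 fold change ran from -0.62 to -0.38 for Iqsec3 and from -0.79 to -0.44 for Nrxn3.

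None of the tested genes passed in these other lists: 18 of glutamate and GABA metabolism, 4 other carriers, 13 partners and effectors of GABA-B receptors, 18 of chloride transport and its kinases, and 11 of GABARAP processing. The genes with the smallest p were Aldh1a1 and Gls2 in metabolism (log2 fold changes -0.41 and -0.48), Best1 and Slc6a8 among carriers (-0.51 and -0.15), and Ajap1 and Kctd12 among GABA-B partners (0.31 and 0.42). In chloride transport they were Car2 and Clcn3 (-0.31 and -0.195), and in GABARAP processing Atg4d and Sqstm1 (-0.29 and 0.10). Of 5 other GABA-A and GABA-rho subunit genes, none passed the filter on low counts and 3 were at 0 in every library. The adjusted p of each of these genes was over 0.05 by edgeR.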

How the data were processed

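Each of the 7 libraries is one SCN sample. Values are unnormalized gene counts as deposited, with library totals that differ, made by the authors from BRB-seq libraries (MERCURIUS kit, per the labels' protocols). Per the submitters' processing notes, the tools included DESeq2, featureCounts, HTSeq and STAR, on build mm10. The sources used here give no versions, annotation, strand setting or collapsing of molecular identifiers. So counts may be reads and not molecules, and precision rests on totals of 2174456 to 5285093. Nothing says that libraries of a group came from separate mice beyond the design text's number of mice per group, so p-values measure the spread between these samples.

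Symbols were found for 55141 of 55487 Ensembl identifiers; the other 346 held 0.0291% of counts. The test was edgeR's quasi-likelihood test (edgeR 4.0.16, R 4.3.3) after filterByExpr, which kept 14020 genes, and TMM scaling, with robust estimation and no covariate. Benjamini-Hochberg adjustment ran over these 14020 genes, with a threshold of 0.05. The SE divides the log2 fold change by the square root of F. Alternatives were other scalings and filters, DESeq2 1.42.0, limma-voom (limma 3.58.1), 2 covariates and each library left out. On simulated data (14020 genes, 200 changed in each of 3 sets) the comparison recovered 79.0% of changes of 1 and 97.0% of changes of 2 on the log2 scale, with 4.25% false calls. Simulated counts took the spread typical of a gene's level, so no gene or library was made more variable than that. Recovery may be lower for genes of wider spread, such as Gad1, Gad2 and Slc32a1, and was not simulated for them. Changes smaller than 1 on the log2 scale, the size seen in every tested member, were not simulated either.

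The members and lists were chosen with earlier results of these data known. All 27 members are named, and of other pathway lists the genes that passed or the 2 with the smallest p, except for one list that is not reported here; of marker lists, up to 2 that passed. Vip, Nkx2-1, Nefl, Apod and Aqp4 come from these lists. Slc17a6 and the genes listed at 0 (Kiss1, Crx, Opn4, Pou4f2) were named after their values were seen. One list gene (Insyn2a) had no matching symbol and one (Dlx6os1) matched 2 identifiers, and both were left out.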

Additional observations from a re-analysis of the deposited data

Results flagged for a closer look

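In control, 38 values (27 members and 11 marker lists) were checked for a library far from the other 3, and 2 were marked, about as many as chance gives at 1 in 20. On mean log2 CPM, set against the control mean, the oligodendrocyte and myelin list stood at -0.25 in scn_cont_567, far under the other control libraries. The same measure for the pan-neuronal list was -0.021 in scn_cont_568, a small distance in a list whose control libraries lay very close together. No GABA gene was marked in control. The advanced glaucoma group has 3 libraries and was not checked in this way, so the low scn_glauc_154 values of Gad1, Gad2 and Slc32a1 stand as described.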

How the results depend on the processing

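The members called were 0 lower and 0 higher in the main analysis and in 15 of 17 alternatives. The count lower was 2, Gad2 and Slc32a1, with no filter on low counts (adjusted p = 0.00382 and 6.31e-04 by edgeR) and without robust estimation (0.0355 and 0.0310), the latter chosen after seeing the data. In the main fit these genes had 6.46 and 6.65 degrees of freedom where the median gene had 25.0, against 30.4 and 40.3 with no filter and 19.4 for both without robust estimation. With no filter, other members such as Abat and Gabra2 had 124540, far more than 7 libraries hold. The p-values of that fit are therefore to be read with caution. Over all alternatives adjusted p ran from 0.00382 to 0.945 for Gad2, from 6.31e-04 to 0.903 for Slc32a1 and from 0.157 to 0.986 for Gad1. Without scn_glauc_154 their log2 fold changes were -0.53, -0.60 and -0.40. Leaving out single libraries gave 0 members in each direction every time. The count of all genes changed, 66, was 202 with no filter, 15 with the myelin list as a covariate, 28 to 93 with 1 library left out (28 without scn_glauc_154, 33 without scn_cont_570), and 36 without scn_cont_565 and scn_glauc_154 together, also chosen after seeing the data. Of 441 alternative values of members, 437 stayed on their side of the threshold and 4 passed it. No member was called in the main analysis, so only those 4 values could count as called, and they kept their direction. Among values not called, the sign changed in 33, spread over 12 members, and the other 14 of the 26 members kept their sign throughout. No paired analysis was possible because the groups share no replicate number. Low counts limit Gabrd and Gabrb2 most, and Gabrd also varied widely within control.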
